A study of Mus musculus with 2 samples.

Results

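Endoderm-like cells of mouse embryoids were compared by their content of Cdkn1a mRNA, which encodes the cyclin-dependent kinase inhibitor p21. From the embryoid library, barcodes with at least 3000 UMIs (tags that each mark 1 captured mRNA molecule), at least 500 genes and a mitochondrial share of 1 to 25% were kept. A kept cell counted as endoderm-like with 5 or more UMIs of Gata4, Sox17, Pdgfra and Col4a1 together, under 5 of the epiblast genes Tdgf1, Sox2, Utf1 and Trh, under 5 of Vim and under 5 of the collagens Col1a1, Col1a2 and Col3a1. Of the 3814 cells that met this, 812 held 5 or more UMIs of Cdkn1a and are called Cdkn1a-high, 763 held 0 and are called Cdkn1a-absent, and 2239 held 1 to 4. The 1575 cells at both ends came from 5546 embryoid barcodes and 6834 barcodes in the series. Cdkn1a and the genes of this rule chose the cells, so their values are given as a description and they were left out of every count of genes.

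The series holds 1 library of embryoids and 1 of E4.5 blastocysts of the strain B6C3F1, each prepared from 6000 cells with the BD Rhapsody whole transcriptome kit after dissociation with TrypLE. For the embryoids, 10000 ES cells from Lifeact-RFPRuby mice and 50000 to 80000 XTE cells, the labels' name for cells reprogrammed from Gata6-H2B:Venus ES cells, were aggregated for 48 h and then kept on cell-repellent plates for 48 h. The ES cells had been grown in serum with Lif, PD0325901 (0.4 µM) and CHIR99021 (3 µM), and the XTE cells with Activin at 20 ng/ml, BMP4 at 50 ng/ml, Fgf4 at 25 ng/ml with heparin, and CHIR99021 at 3 µM. The Cdkn1a-high and Cdkn1a-absent cells lay in the same library and shared the aggregation, dissociation and library preparation. The labels do not say which of the lines a cell came from, so the makeup of the groups by line is not known.

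The transcription factor p53 is kept low by the ubiquitin ligase Mdm2, which is itself a p53 target, so that a rise in p53 activity feeds back on itself. DNA damage, oncogene signals, nucleotide shortage and other stress release p53 from Mdm2, and it then switches on genes of cell cycle arrest, cell death, DNA repair and metabolism. Cdkn1a is the best known of its arrest targets, although other regulators also act on this gene, and p21 holds back the cyclin-dependent kinases that drive cells into S phase. Primitive endoderm is the extraembryonic epithelium that forms on the blastocoel side of the inner cell mass and gives rise to the yolk sac endoderm.

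The rule set Cdkn1a at 0 in one group and at 5 or more UMIs in the other. The Cdkn1a-high cells had a median of 6 UMIs and a maximum of 26, which gave 896 CPM (UMIs of the gene scaled to the same library total in each group) over the group, and the cells with 1 to 4 UMIs had 375 CPM. At the edges, the 257 cells with 5 UMIs had a median of 782 CPM, the 363 cells with 4 UMIs 700 CPM and the 740 cells with 1 UMI 199 CPM, so the limits cut through a continuous range. Cdkn1a-absent cells made up 20.0% of the endoderm-like cells (exact Clopper-Pearson 95% interval 18.7 to 21.3%) and Cdkn1a-high cells 21.3% (20.0 to 22.6%). These shares depend on depth as well as on the level of the gene. If all endoderm-like cells had 1 shared Cdkn1a level, counting at their depths would give about 692 cells with 5 or more UMIs. It would give about 367 cells with 0 UMIs, against the 812 and 763 cells seen.

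In the blastocyst library, 207 of the 218 cells that met the same endoderm rule had 0 UMIs of Cdkn1a, 11 had 1 or more, and the group level was 9.27 CPM. None of the 218 reached 5 UMIs, a count of 0 that allows a share of up to 1.38% (3 counts of the total; the exact Clopper-Pearson upper bound is 1.68%), although their median depth of 9273 UMIs was above the 5439 UMIs of the embryoid cells. Of 87 embryoid cells with epiblast markers, 67.8% (56.9 to 77.4%) had a UMI of Cdkn1a at a median depth of 6305 UMIs, at a level of 214 CPM, against 80.0% of the endoderm-like cells. Library and condition cannot be told apart between embryoid and blastocyst, and the part of free RNA in low Cdkn1a counts was not tested.

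Depth differed between the groups, because deeper cells reach 5 UMIs more readily and shallower cells miss a transcript more readily. Cdkn1a-high cells had a median of 7140.5 UMIs and 3114.5 genes, and Cdkn1a-absent cells 4647 UMIs and 2315 genes. Among cells with 3000 to under 5000 UMIs, 9.84% were Cdkn1a-high and 28.1% Cdkn1a-absent, and among those with 8000 or more, 44.5% and 9.65%. Values are therefore also given for groups matched on depth, with 480 cells each and medians of 5739.5 and 5681.5 UMIs. Cells above 15000 UMIs, which may include doublets, were 3.82% of the Cdkn1a-high and 0.524% of the Cdkn1a-absent cells, and no doublet caller was run. The median mitochondrial share was 6.25% in Cdkn1a-high and 6.80% in Cdkn1a-absent cells, and 9 barcodes occurred in both libraries, 3 of them among the embryoid endoderm-like cells.

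Both groups carried the endoderm markers that the rule had not used. All 15 listed markers were detected, including the transcription factor Gata6 at 164 CPM in Cdkn1a-high and 181 CPM in Cdkn1a-absent cells and Foxa2 at 115 CPM in each, and their sum was 14413 and 15575 CPM. In Cdkn1a-high cells 11 of the 15 had an interval below 0 and 1 above, against 9.53% and 9.09% of all genes. Among them 1 was at least 2-fold lower (Cubn), and the median log2 ratio of the 15 was -0.14. Markers of other cell types were low in both groups. The 15 epiblast markers summed to 255 and 357 CPM, with Pou5f1, Gdf3 and Tcl1 at 0, and the 13 of 15 trophectoderm markers in the table to 113 and 107 CPM, with Tfap2c and Dppa1 among those at 0. The 12 fibroblast or mesoderm markers summed to 28.2 and 34.0 CPM, endothelial markers to 3.71 and 4.21 CPM, primitive streak markers to 10.4 and 15.9 CPM and neural markers to 1.08 and 0.744 CPM. Of 9 blood markers 2 were in the table and had no UMI, and the 2-cell-stage markers held 0.155 CPM in Cdkn1a-high cells and 0 in the others.

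Targets of p53 stood apart from the bulk of genes in Cdkn1a-high cells. Ddit4l, an inhibitor of mTOR signalling, the kinase gene Plk2, the death gene Bbc3 and the antiproliferative gene Btg2 were among those higher. UMIs were summed over each group and compared as the log2 ratio of CPM + 1, Cdkn1a-high over Cdkn1a-absent, for the 11489 genes with 20 or more UMIs over both groups. With 1 library, cells are not replicates, so there is no test between the groups, and the 95% intervals of the count ratios cover counting error only. Of all these genes, 36 reached 10 CPM and were at least 2-fold higher in Cdkn1a-high cells, which is 0.313%, and 2 were at least 2-fold lower, which is 0.0174%. The median log2 ratio of all genes was -0.00, and 94.2% of them lay within 1.5-fold. Of 62 listed p53 targets other than Cdkn1a, 61 were in the table and 54 reached 20 UMIs, of which 16 passed the 2-fold limit upward and 0 downward. At 1.5-fold, a limit added after the data were seen, 24 targets were higher, against 1.71% of all genes, and 0 lower, against 0.54%. Their median log2 ratio was 0.79, and 0.82 in the depth-matched groups, where 14 of the 16 were again at least 2-fold higher. The interval lay above 0 for 39 of the 54 targets, against 9.09% of all genes, below 0 for 0 of them, against 9.53% of all genes, and spanned 0 for 15. The targets summed to 5481 CPM in Cdkn1a-high and 3241 CPM in Cdkn1a-absent cells.

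**Figure D1:**
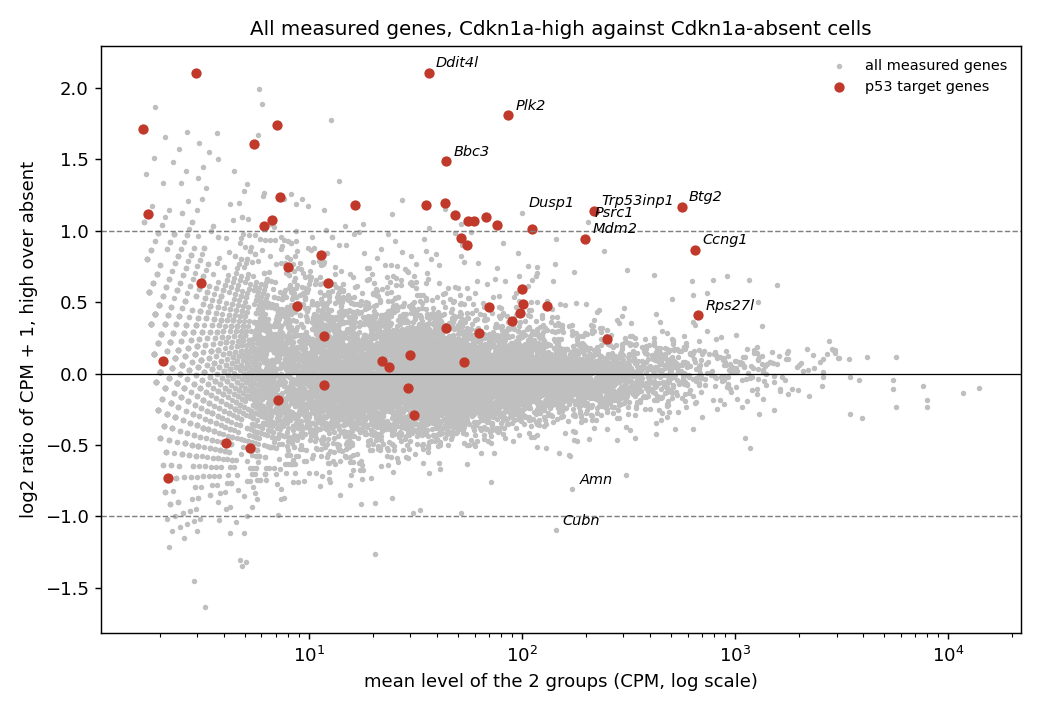
Each point is 1 of the 11489 genes measured, placed by its mean CPM in the 2 groups (log axis) and its log2 ratio of CPM + 1, Cdkn1a-high over Cdkn1a-absent, with p53 targets in red and dashed lines at 2-fold. Most genes lie near 0, and the red points above 10 CPM that pass the upper line include Ddit4l, Plk2, Bbc3 and Btg2, while Cubn passes the lower line.

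Among the targets that arrest the cell cycle or feed back on p53, 4 of the 16 measured were at least 2-fold higher and 13 had an interval above 0, with a median log2 ratio of 0.85. The shares over all genes were 0.313% and 9.09%. Ddit4l had 59.9 CPM in Cdkn1a-high, 34.0 CPM in intermediate and 13.1 CPM in Cdkn1a-absent cells, a log2 ratio of 2.11 (1.77 to 2.63). Plk2, a polo-like kinase, had 134, 81.9 and 37.7 CPM in the same order, a log2 ratio of 1.81 (1.59 to 2.09). Both were lowest where Cdkn1a was not detected, and the depth-matched log2 ratios were 2.41 for Ddit4l and 2.01 for Plk2. Btg2 had 778, 529 and 346 CPM, a log2 ratio of 1.17 (1.08 to 1.26). Trp53inp1, a p53-induced nuclear protein, had 302, 216 and 136 CPM, a log2 ratio of 1.14 (1.01 to 1.29).

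The feedback genes stood less far apart than these. Mdm2 had 261 CPM in Cdkn1a-high, 196 CPM in intermediate and 135 CPM in Cdkn1a-absent cells, a log2 ratio of 0.94 (0.81 to 1.09). Ccng1, which encodes the cyclin G1 that recruits a phosphatase to Mdm2, had 839, 655 and 459 CPM, a log2 ratio of 0.87 (0.79 to 0.95). Ppm1d, the phosphatase gene that switches off damage signalling, had 54.9 and 51.8 CPM in the high and absent cells, with an interval of -0.17 to 0.34. The zinc finger gene Zmat3 (81.7 and 59.0 CPM) and the sestrin gene Sesn2 (102 and 78.3 CPM) had log2 ratios of 0.46 and 0.37. Gadd45a and Sesn1 had log2 ratios of 0.05 and -0.08, each with an interval spanning 0, so members of the same class differed from each other.

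**Figure D2:**
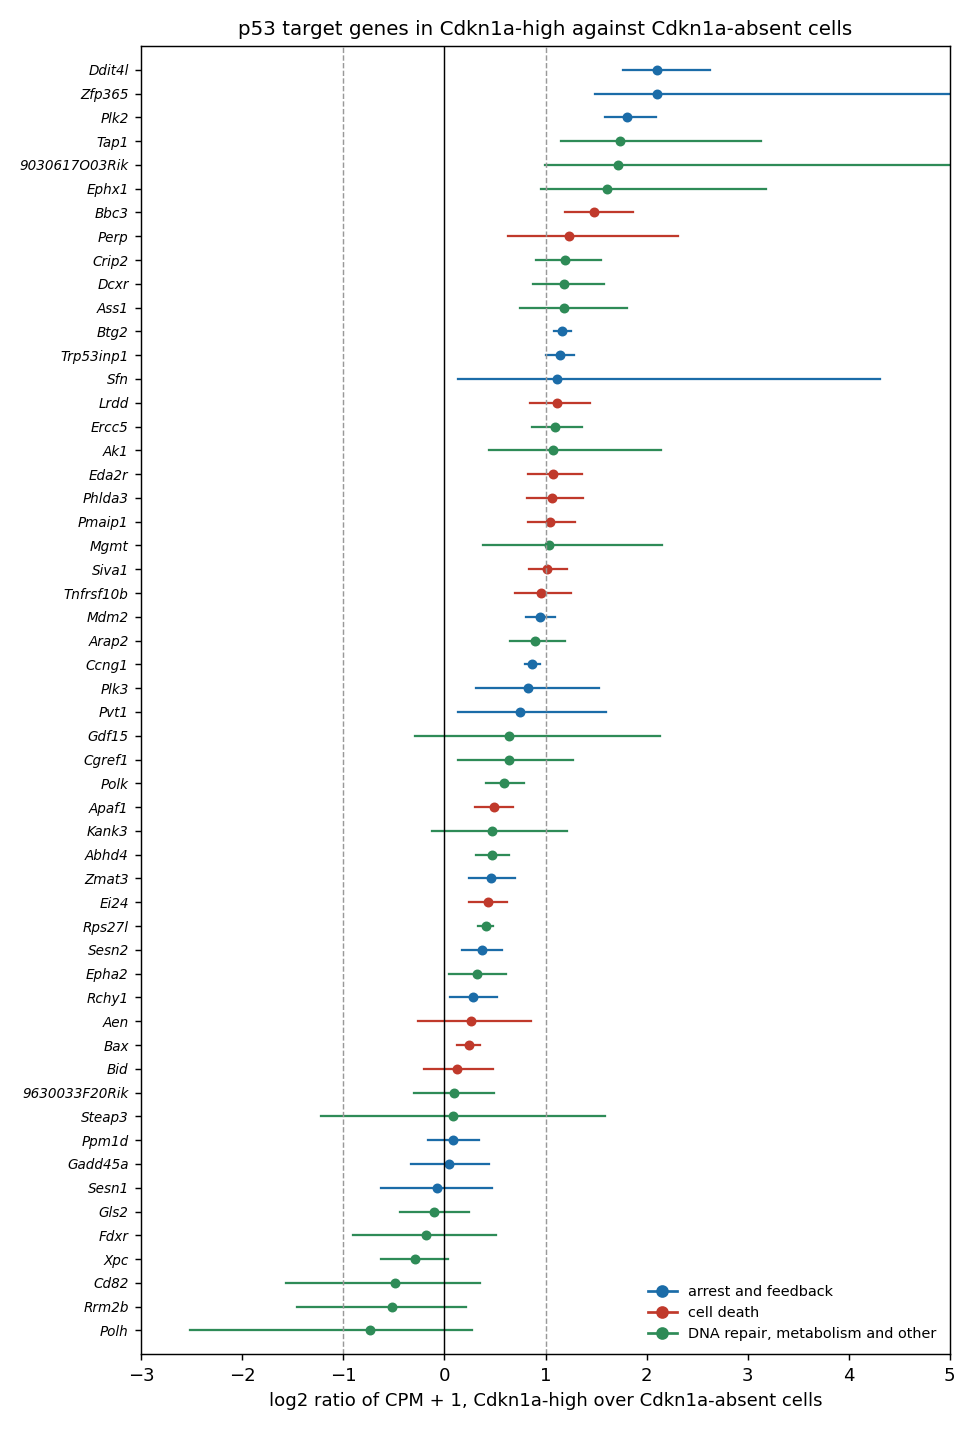
Log2 ratio of CPM + 1, Cdkn1a-high over Cdkn1a-absent cells, for the 54 measured p53 targets, coloured by role, with exact 95% intervals for counting error and dashed lines at 2-fold; 2 intervals run past the right edge of the axis. Of the 54 points 47 lie right of 0, from Ddit4l at 2.11 down, and no interval lies wholly left of 0.

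The promoters of Cdkn1a and of the feedback genes Mdm2 and Ccng1 are shown because these genes make up the core of the arrest and feedback class and each window holds a match to the p53 half-site, the decamer that p53 binds in pairs. In RefSeq promoters (build GRCm38.p6), the 250 bases before each start were searched on both strands for the half-site consensus, with matches allowed to overlap. The printed stretches leave out the last 30 bases before the start, and capitals mark the matches. The Cdkn1a stretch is chr17:29090729-29090948 on the plus strand, that of Mdm2 is chr10:117710789-117711008 and that of Ccng1 chr11:40755317-40755536, both on the minus strand.
Cdkn1a: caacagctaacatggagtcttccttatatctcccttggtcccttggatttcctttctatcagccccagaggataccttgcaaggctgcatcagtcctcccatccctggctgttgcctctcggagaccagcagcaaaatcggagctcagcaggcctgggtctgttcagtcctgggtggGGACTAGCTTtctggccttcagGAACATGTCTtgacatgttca
Mdm2: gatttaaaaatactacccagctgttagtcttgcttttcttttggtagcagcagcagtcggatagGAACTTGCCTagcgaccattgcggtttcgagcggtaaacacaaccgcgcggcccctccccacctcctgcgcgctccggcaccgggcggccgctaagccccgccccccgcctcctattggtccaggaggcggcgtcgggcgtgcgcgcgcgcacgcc
Ccng1: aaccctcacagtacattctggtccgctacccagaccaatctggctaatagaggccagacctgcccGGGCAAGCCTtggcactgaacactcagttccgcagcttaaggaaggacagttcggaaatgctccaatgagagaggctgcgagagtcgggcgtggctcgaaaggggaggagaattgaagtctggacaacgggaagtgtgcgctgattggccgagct
The Cdkn1a stretch holds 2 matches, which begin 73 and 51 bases before the start and lie close enough for a full site, counted as 2 half-sites with a spacer of up to 13 bases. The matches in Mdm2 and Ccng1 begin 186 and 185 bases before the start and stand alone. Of the windows of the measured p53 targets, 13 of 66 (19.7%, from 45 of 54 genes matched) held a half-site, of those of the 36 genes at least 2-fold higher 4 of 35 (11.4%, from 29 genes matched), and of all windows 2341 of 32851 (7.13%). A full site was present in 21 of all windows (0.0639%) and in 0 of both lists, from which Cdkn1a was left out. These are letter matches in a short window and say nothing of binding.

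In the annotation (GENCODE vM21, build GRCm38, the mm10 of the files), Cdkn1a lies on the plus strand of chromosome 17 at 29090976 to 29100727, and 3 expressed neighbours did not share its pattern. The splicing factor gene Srsf3 had 289 CPM in Cdkn1a-high and 307 CPM in Cdkn1a-absent cells (log2 ratio -0.09). Kctd20 and the kinase gene Stk38 had log2 ratios of -0.10 and -0.30. An antisense transcript model overlaps Cdkn1a, and whether the counting used strand is not given in the sources used here.

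Of the 3 classes, death genes held the largest share of 2-fold differences at 10 CPM or more. Of 13 measured, 7 were at least 2-fold higher and 11 had an interval above 0, against 0.313% and 9.09% of all genes. Their median log2 ratio was 1.01. Bbc3, which encodes the BH3-only protein Puma, had 65.6 CPM in Cdkn1a-high, 43.3 CPM in intermediate and 22.8 CPM in Cdkn1a-absent cells, a log2 ratio of 1.48 (1.20 to 1.87). Pmaip1, which encodes the BH3-only protein Noxa, had 103, 78.3 and 49.6 CPM, a log2 ratio of 1.04 (0.83 to 1.29). Both proteins block the survival members of the Bcl2 family. Lrdd (now Pidd1, a death domain adaptor) had 66.5 and 30.2 CPM in high and absent cells, the receptor Eda2r 80.8 and 37.9 CPM, the Akt inhibitor Phlda3 76.0 and 35.7 CPM and Siva1 150 and 73.6 CPM, each with a log2 ratio between 1.01 and 1.11. Perp, a membrane protein of desmosomes, had 10.7 and 3.97 CPM, a log2 ratio of 1.23 that was 0.80 in the depth-matched groups. The death receptor Tnfrsf10b had 68.5 and 35.0 CPM, a log2 ratio of 0.95.

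Downstream of these, the executors were nearly level. Bax, the pore-forming Bcl2 relative and itself a p53 target, had 273 CPM in Cdkn1a-high and 231 CPM in Cdkn1a-absent cells, a log2 ratio of 0.24 (0.12 to 0.36). Apaf1, the scaffold of the apoptosome, had 118 and 84.0 CPM, a log2 ratio of 0.49. In a separate list of the Bcl2 family and caspases, 0 of 14 measured members differed by 2-fold and the median log2 ratio was 0.11. The survival gene Mcl1 had 309 and 289 CPM, with an interval of -0.01 to 0.20.

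Targets of DNA repair, metabolism and other roles were the most uneven class, with a median log2 ratio of 0.59. Of 25 measured, 5 were at least 2-fold higher and 15 had an interval above 0, against 0.313% and 9.09% of all genes. Tap1, the peptide transporter of antigen presentation, had 11.5 CPM in Cdkn1a-high and 2.73 CPM in Cdkn1a-absent cells, a log2 ratio of 1.74 (1.15 to 3.13). Ercc5, the endonuclease of nucleotide excision repair, had 92.7 and 42.9 CPM, a log2 ratio of 1.09 (0.87 to 1.36). Crip2, a LIM domain protein, had 61.3 and 26.3 CPM, and Dcxr, a xylulose reductase, 49.7 and 21.3 CPM, with log2 ratios of 1.19 and 1.18. Ass1, the arginine synthesis enzyme, had 23.2 and 9.67 CPM, a log2 ratio of 1.18 that was 0.88 in the depth-matched groups. The bypass polymerase Polk (120 and 79.3 CPM) and the ribosomal protein gene Rps27l (767 and 578 CPM) stood closer, with log2 ratios of 0.59 and 0.41. Other repair genes of the class did not stand higher: the damage sensor Xpc had a log2 ratio of -0.29 (-0.62 to 0.03) and the p53-inducible ribonucleotide reductase subunit Rrm2b, at 4.18 and 6.44 CPM, one of -0.52 (-1.46 to 0.21). The 7 listed targets under 20 UMIs, which include Fas, Rprm and Ddb2, give no ratio here.

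At the level of single cells the p53 targets formed overlapping distributions, not separate classes. After each cell was thinned at random to 3000 UMIs, a Cdkn1a-high cell had a median of 16 p53 target UMIs (middle 50% of cells 12 to 21, range 3 to 52) and a Cdkn1a-absent cell 9 (7 to 12, range 1 to 33). The intermediate cells lay between, at a median of 13. Abundant targets weigh most in this sum. Before thinning, Ccng1, Btg2 and Rps27l held 5419, 5027 and 4957 of the 35422 target UMIs in Cdkn1a-high cells. In Cdkn1a-absent cells they held 1853, 1395 and 2333 of 13074. Of the Cdkn1a-absent cells 95, or 12.5%, reached the median of the Cdkn1a-high cells, against 31.4% of intermediate and 53.6% of Cdkn1a-high cells. Cells without a Cdkn1a UMI therefore included some with as many p53 target UMIs as a typical Cdkn1a-high cell.

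**Figure D3:**
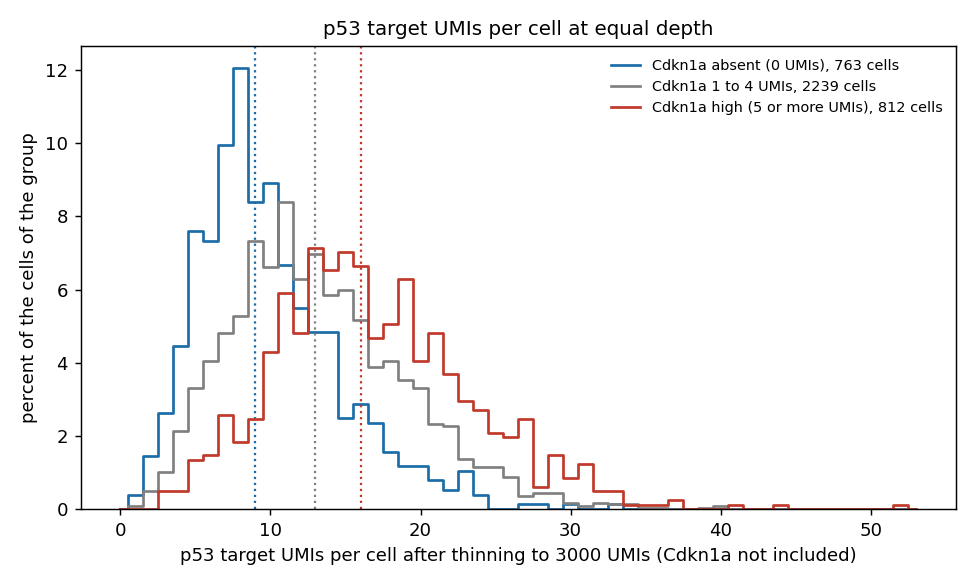
Share of the cells of each group (percent) by the number of p53 target UMIs per cell after thinning to 3000 UMIs, without Cdkn1a; dotted lines mark the medians. The medians are 9, 13 and 16 UMIs for Cdkn1a-absent, intermediate and Cdkn1a-high cells, and the 3 distributions overlap.

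The order held in steps of Cdkn1a when depth was equal. Among the 3814 endoderm-like cells thinned to 3000 UMIs, 1359 had 0 UMIs of Cdkn1a left, 1030 had 1, 676 had 2, 581 had 3 to 4 and 168 had 5 or more. The summed p53 targets had 3571, 4439, 4918, 5423 and 6319 CPM in these 5 steps. Ccng1 went from 523 CPM at 0 through 669, 791 and 839 to 1026 CPM at 5 or more. Plk2 had 44.2, 91.3, 110, 128 and 165 CPM and Bbc3 31.4, 45.0, 57.7, 73.4 and 83.3 CPM. Each of these 3 genes was higher at every step, with the widest gap for Plk2 between 0 and 1 UMI. Over 3 classes of thinned Cdkn1a (0, 1 to 2, and 3 or more UMIs), 37 of the 54 targets had an ascending order, against 22.6% of all genes.

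**Figure D4:**
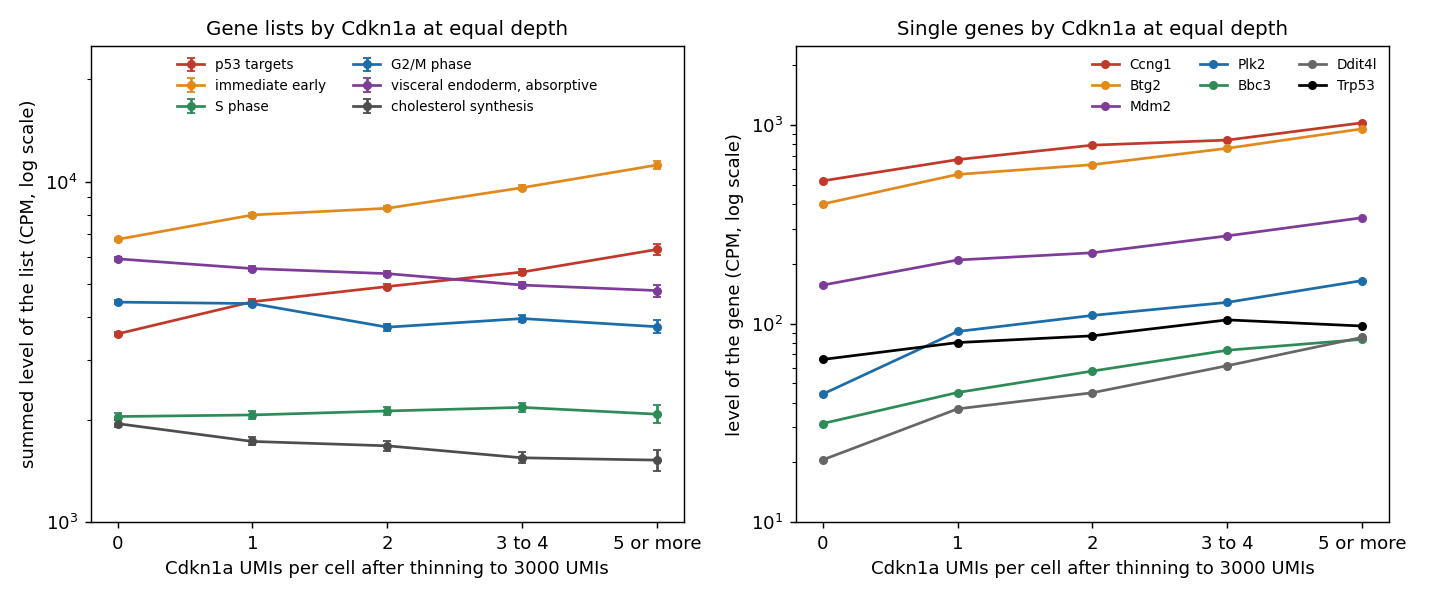
Left, summed CPM (log axis) of 6 gene lists, with exact 95% Poisson intervals, and right, CPM (log axis) of 7 genes, in cells grouped by Cdkn1a UMIs after thinning to 3000 UMIs. The p53 targets go from 3571 to 6319 CPM and immediate early genes from 6763 to 11183 CPM from left to right, S phase genes stay between 2043 and 2173 CPM, and absorptive and cholesterol genes slope down.

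The same genes led when all genes were ranked by their Spearman correlation with Cdkn1a across these 3814 thinned cells, which share 1 library, among the 7206 genes with a UMI in 5% of cells. The correlations were weak and are given as a description: 0.23 for Ccng1 and Btg2, 0.20 for Trp53inp1, 0.18 for the AP-1 subunit gene Jun and for Plk2, 0.17 for Mdm2, and 0.15 for the transcription factor gene Egr1, the peroxidase gene Gpx3, the microtubule-associated gene Psrc1 and the tetraspanin gene Cd81. Of the first 10 genes 5 were listed p53 targets, and of the first 40 genes 15. The 33 targets among the genes ranked had a median of 0.0892, against -0.00119 for all genes, whose 99th percentile was 0.0714. The lowest values were those of the serine synthesis gene Psat1, the nucleolar gene Ncl and the asparagine synthetase gene Asns, between -0.106 and -0.105.

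The p53 gene itself stood higher in Cdkn1a-high cells, while most of its regulators were near level. Trp53 had 92.7 CPM in Cdkn1a-high, 77.4 CPM in intermediate and 63.5 CPM in Cdkn1a-absent cells, a log2 ratio of 0.54 (0.33 to 0.76), and 0.67 in the depth-matched groups. Of 15 measured members of this list 0 differed by 2-fold, and the median was -0.04. An interval above 0 was seen for 1 and below 0 for 3, against 9.09% and 9.53% of all genes. The Mdm2 partner Mdm4 had 15.8 and 19.8 CPM, with an interval of -0.77 to 0.11, and the deubiquitinase gene Usp7 had 222 and 260 CPM, a log2 ratio of -0.22 (-0.34 to -0.11). The DNA damage kinase genes Atm, Atr, Chek1 and Chek2 had intervals spanning 0, with log2 ratios of 0.15, 0.13, -0.13 and 0.21. The kinase gene Hipk2 had 22.9 and 31.2 CPM (-0.43, -0.80 to -0.09), and Trp53bp1 12.1 and 17.8 CPM (-0.53, -1.05 to -0.08). In the depth-matched groups their log2 ratios were -0.09 and -0.04.

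Other inhibitors of cyclin-dependent kinases did not follow Cdkn1a. Of 7 measured, 0 differed by 2-fold, and the median log2 ratio was 0.05. Cdkn1b, which encodes p27, had 102 CPM in Cdkn1a-high and 98.7 CPM in Cdkn1a-absent cells, with an interval of -0.13 to 0.23. Cdkn1c, which encodes p57, stood lower in Cdkn1a-high cells, at 60.5 and 82.3 CPM (log2 ratio -0.44, -0.66 to -0.23). Cdkn2a had 115 and 101 CPM, a log2 ratio of 0.19 (0.02 to 0.37), and the count does not separate the transcripts of its locus.

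Cell cycle genes were present at similar levels in both groups. Of 24 measured S phase genes 0 were at least 2-fold apart, and their median log2 ratio was 0.19, or 0.06 after matching on depth. Rrm2, the small subunit of ribonucleotide reductase, was the furthest apart, at 218 CPM in Cdkn1a-high and 133 CPM in Cdkn1a-absent cells (log2 ratio 0.71, 0.57 to 0.86). Of 27 G2/M genes 0 were 2-fold apart, with a median of -0.04, or -0.17 after matching. Gtse1, whose protein binds p53 and p21, had 191 and 99.4 CPM (log2 ratio 0.94, 0.78 to 1.11), and Ckap2 had 102 and 64.4 CPM, while Ccnb2, a mitotic cyclin, had 87.4 and 111 CPM (-0.34, -0.52 to -0.16).

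The sign of the G2/M difference depended on how cells were grouped and how the genes were summarised. Per cell thinned to 3000 UMIs, Cdkn1a-high cells had a median of 11 G2/M UMIs and Cdkn1a-absent cells 7, and 11.3% and 16.3% of them had 0. These groups were chosen before thinning, at median depths of 7140.5 and 4647 UMIs, so thinning did not match the cells themselves. Groups closer in depth before thinning had lower G2/M values with more Cdkn1a. In steps of thinned Cdkn1a the summed G2/M genes had 4426 CPM at 0 UMIs and 3748 CPM at 5 or more. The median log2 ratio was -0.17 in the depth-matched groups and -0.24 for 3 or more thinned Cdkn1a UMIs against 0. Among G1 regulators, 0 of 20 were called and the median log2 ratio was 0.18, with the cyclin gene Ccnd2 at 258 and 191 CPM (log2 ratio 0.43) and Rb1 at 11.1 and 5.45 CPM (0.91). Before thinning, 776 of the 812 Cdkn1a-high cells and 674 of the 763 Cdkn1a-absent cells had at least 1 G2/M UMI, and the part of free RNA in such low counts was not tested.

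Immediate early genes moved with Cdkn1a. These genes respond within minutes to growth factors and to stress, enzymatic dissociation included. Of 17 measured, 1 was at least 2-fold higher and 15 had an interval above 0, against 0.313% and 9.09% of all genes. Their median log2 ratio was 0.56, or 0.71 after matching on depth. Dusp1, a MAP kinase phosphatase whose locus overlaps Ergic1 on the other strand, had 138 CPM in Cdkn1a-high and 62.5 CPM in Cdkn1a-absent cells (log2 ratio 1.13, 0.94 to 1.35). Atf3 had 314 and 173 CPM (0.86), Fos 1419.9 and 902 CPM (0.65), and the list summed to 9172 and 6230 CPM. When cells were split at the median share of immediate early UMIs, a split added after the data were seen, the median log2 ratio of p53 targets was 0.75 in the lower and 0.80 in the upper part. Single targets moved more. In the lower and upper parts Btg2, at 1.17 in the groups as chosen, had 1.05 and 0.82. Plk2, at 1.81, had 1.51 and 1.89, and Ddit4l, at 2.11, had 2.55 and 1.56.

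Endoderm genes of uptake stood lower in Cdkn1a-high cells. Of 14 measured absorptive genes of the visceral endoderm, 8 had an interval below 0, against 9.53% of all genes. They included 1 at least 2-fold lower, and their median log2 ratio was -0.19, or -0.43 after matching on depth. Cubn, the receptor that takes up vitamin B12 complexes and lipoproteins, had 91.4 CPM in Cdkn1a-high, 128 CPM in intermediate and 197 CPM in Cdkn1a-absent cells, a log2 ratio of -1.10 (-1.26 to -0.95). Its membrane partner Amn had 125, 150 and 220 CPM (-0.81, -0.95 to -0.68), and the co-receptor Lrp2 234, 309 and 383 CPM (-0.71, -0.81 to -0.61). The clathrin adaptor Dab2 had 939, 1044 and 1284 CPM (-0.45). The 4 genes act in the same uptake pathway, and each was lowest in Cdkn1a-high cells.

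Secretory visceral endoderm genes were mixed. Of 6 measured, 1 was at least 2-fold higher, 3 had an interval above 0 and 3 spanned 0. Over all genes 0.313% were at least 2-fold higher and 9.09% had an interval above 0. The trefoil peptide Tff3 had 33.9 CPM in Cdkn1a-high and 15.1 CPM in Cdkn1a-absent cells (log2 ratio 1.11), Nepn 33.4 and 17.1 CPM (0.93) and the retinol carrier Rbp4 388 and 234 CPM (0.73, 0.62 to 0.84). Ttr, the thyroxine carrier, had 318 and 340 CPM, with an interval of -0.19 to 0.01 and a depth-matched log2 ratio of -0.50. The phospholipase-related gene Pla2g12b and the carboxypeptidase gene Cpn1 had log2 ratios of -0.22 (-0.52 matched) and 0.02. Basement membrane genes, which primitive endoderm secretes in bulk, had 0 of 16 members 2-fold apart and a median of -0.11, or 0.06 after matching. Of the 16, 7 had an interval below 0 and 1 above, against 9.53% and 9.09% of all genes. The linker gene Nid1 had 22.3 and 44.1 CPM (-0.95, or -0.53 after matching), and the laminin genes Lamc1 and Lama1 had log2 ratios of -0.52 and -0.39, or -0.28 and -0.16 after matching. When cells with fewer than 10 and with 10 or more absorptive UMIs (Spink3, S100g, Cubn, Amn and Lrp2 together) were taken apart, the p53 targets kept medians of 0.66 and 0.76.

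Anabolic lists were lower by small amounts. Of 16 cholesterol synthesis genes 0 were 2-fold apart and 11 had an interval below 0, against 9.53% of all genes. Their median log2 ratio was -0.33, or -0.60 after matching on depth. Cyp51, the sterol demethylase, had 174 CPM in Cdkn1a-high and 238 CPM in Cdkn1a-absent cells (-0.46, -0.58 to -0.33). Of 16 genes induced by the amino acid stress factor ATF4, 0 were 2-fold apart, and their median log2 ratio was -0.28. An interval below 0 was seen for 8 of the 16, against 9.53% of all genes. Asns had 135 and 202 CPM (-0.58) and Psat1 148 and 204 CPM (-0.46). Hypoxia genes had a median of 0.10 over 16 members, or 0.23 after matching on depth. Of the 16, 5 had an interval above 0 and 1 below, against 9.09% and 9.53% of all genes. Over the 3 classes of thinned Cdkn1a, 11 of them had an ascending order, against 22.6% of all genes. The mTOR inhibitor Ddit4, a paralog of Ddit4l, was the furthest apart, at 107 and 56.3 CPM (0.92, 0.71 to 1.15), followed by Ankrd37 at 78.8 and 45.6 CPM (0.78, 0.54 to 1.04).

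**Figure D5:**
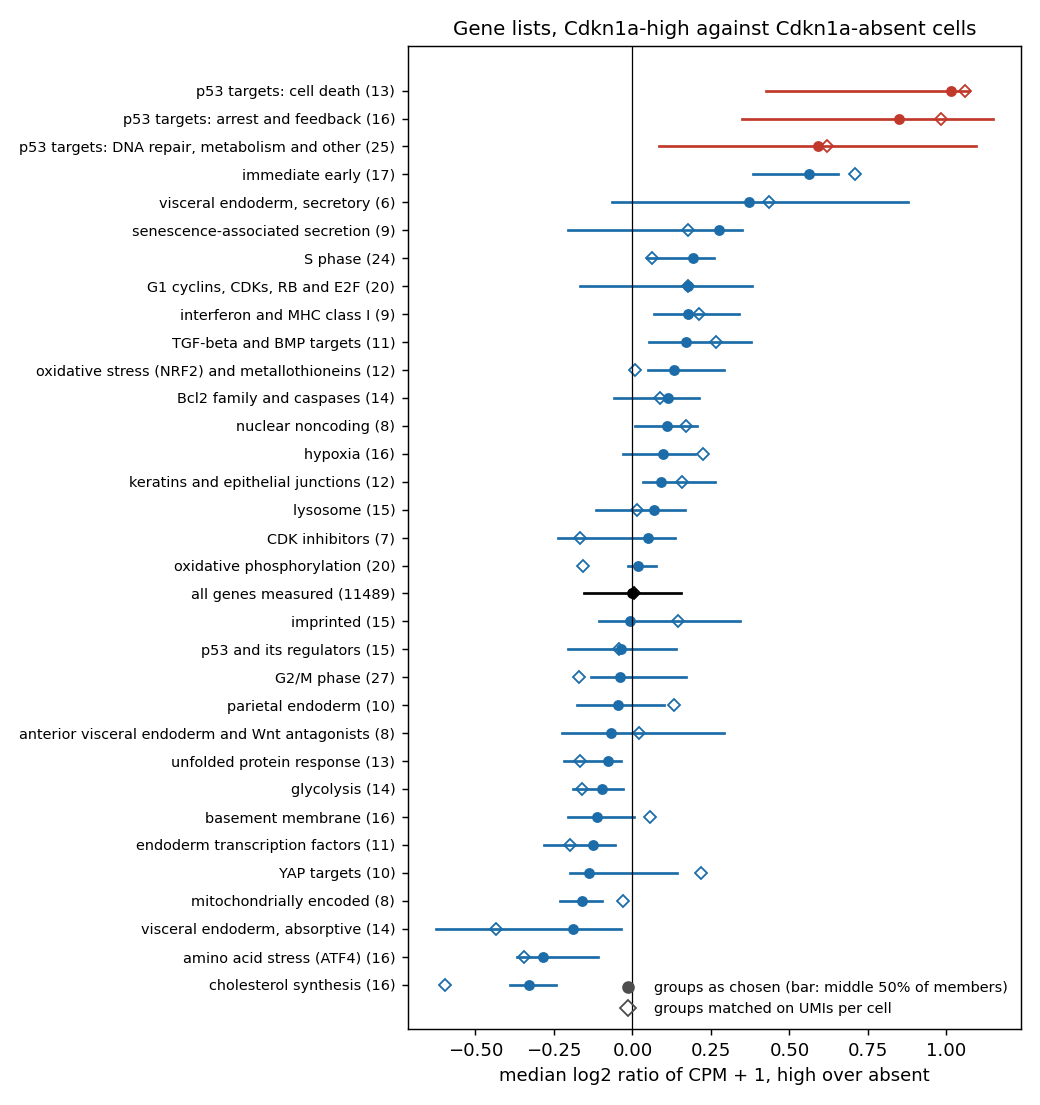
Median log2 ratio of CPM + 1, Cdkn1a-high over Cdkn1a-absent, for each gene list with its number of measured members; filled circles are the groups as chosen with bars over the middle 50% of members, open diamonds the depth-matched groups, red the p53 targets. The 3 p53 classes lie at 0.59 to 1.01, immediate early genes at 0.56, and cholesterol synthesis is lowest at -0.33.

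Of the 36 genes at least 2-fold higher, 16 (44.4%) were listed p53 targets and 20 were not, and 32 of the 36 were again at least 2-fold higher after matching on depth. Outside the list, the rule for naming gave 1700007K13Rik at 20.3 CPM in Cdkn1a-high and 5.21 CPM in Cdkn1a-absent cells (log2 ratio 1.78) and Fam212b at 10.1 and 1.98 CPM (1.89). It also gave Cpne2, a copine (20.4 and 7.44 CPM), Cpt1c, a brain-type relative of carnitine palmitoyltransferase (60.2 and 26.5 CPM), and Lrrc28 (38.7 and 16.1 CPM). Psrc1, a microtubule-associated gene, had 276 and 132 CPM (log2 ratio 1.06, 0.92 to 1.21). Named after their values were seen, the cytokine gene Lif had 24.6 and 11.4 CPM and the ligand gene Wnt5a 11.9 and 5.45 CPM. On the lower side stood Cubn, described above with the uptake genes.

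Cdkn1a-absent embryoid cells were not at blastocyst levels for all p53 targets. Against the 218 blastocyst cells of the same rule, 20 of the 54 targets stood at least 2-fold above in Cdkn1a-absent cells and 6 that far below, where 20.6% and 8.95% of all genes were, with a median log2 ratio of 0.60 against 0.13 for all genes. Ccng1 had 459 CPM in Cdkn1a-absent embryoid cells and 65.8 CPM in the blastocyst cells, Btg2 346 and 25.4 CPM, and Mdm2 135 and 84.4 CPM. Btg2 and Ccng1 thus stood further from the blastocyst cells than from the Cdkn1a-high cells on the CPM ratio, and each side of the comparison is 1 library.

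The median of the p53 targets was above 0 in each subset of the cells that was tried, over the targets that reached 20 UMIs there. The median log2 ratio of the targets was 0.78 among cells with under 5000 UMIs, 0.92 from 5000 to under 8000 and 0.69 at 8000 or more, over 39, 47 and 48 targets. It was 0.75 in cells with 0 G2/M UMIs (27 targets, 36 Cdkn1a-high and 89 Cdkn1a-absent cells) and 0.79 in cells with 1 or more (54 targets). These medians rest on different members and, in the small subsets, on wide counting intervals, so their sizes are not compared. Without cells above 15000 UMIs it was 0.82. The number of genes called moved more with the choice of cells, from 36 genes at least 2-fold higher in the groups as chosen to 90 in the depth-matched groups, which hold fewer UMIs.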

How the data were processed

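Tools in the submitters' processing notes are STAR 2.7.1a, featureCounts 1.6.4 from Subread, UMI-tools 1.0.1 and bcl2fastq 2.19.1.403, with the build mm10. The sources used here do not give the annotation, strand setting or barcode calling. As deposited by the authors, the values are UMI counts per gene and barcode: 28923930 UMIs over 5546 embryoid barcodes and 11047555 over 1288 blastocyst barcodes. Counts were summed per cell group and scaled to CPM with Python 3.11.15, numpy 2.4.6, scipy 1.17.1 and pandas 2.3.3; the ratios have 1 CPM added, which understates differences of low genes. Exact intervals are conditional binomial (ratios), Poisson (levels) and Clopper-Pearson (shares), at 95%, for counting error only, and the interval code was tested on simulated data. Depth matching drew equal cell numbers in bins of 0.25 log2 units of UMIs, with seed 1. Older symbols were matched through RefSeq synonyms. Named genes were the 15 highest and lowest at least 2-fold apart in both the chosen and the matched groups, by the interval end nearer 0, up to 4 members of each list by size of ratio (any member of the p53 and kinase inhibitor lists), and the 10 most correlated with Cdkn1a. The members and lists were chosen with earlier results of these data known. The alternatives are given in the closing section. Some genes that the rule would name are not reported here.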

Additional observations from a re-analysis of the deposited data

How the results depend on the processing

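A list median or gene ratio counted as called here where it exceeded the half-width of its counting interval (for a list, the median over members). Over up to 19 alternatives per result no called value reversed. All 298 recomputed ratios of the genes named by size kept their sign, and 50 moved beyond their interval. Other medians and counts could not reverse by this rule, and the medians of G2/M, S phase, hypoxia and basement membrane genes, not called, changed sign in some alternatives. The median log2 ratio of p53 targets ran from 0.36 to 0.89 over these alternatives (0.69 to 0.92 in the 3 depth classes). It was 0.36 for cells with 1 to 4 Cdkn1a UMIs against 0 and 0.44 with 10 CPM added. Counts moved most, and smaller groups carry more counting error.

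Genes at least 2-fold higher (36) and lower (2) numbered 90 and 27 after matching on depth, 124 and 65 for 10 or more Cdkn1a UMIs, 2 and 0 for 1 to 4 UMIs, 7 and 1 with 10 CPM added, 93 and 20 without the 10 CPM minimum, 149 and 203 in cells with 0 G2/M UMIs, 56 and 21 with 10 or more absorptive UMIs and 109 and 34 with fewer. With limits or splits added after seeing the data they numbered 197 and 62 at 1.5-fold, 57 and 11 at or below the median immediate early share and 75 and 14 above it. Higher and lower genes numbered 36 and 8 in thinned cells, 54 and 16 with at least 5000 UMIs per barcode, 46 and 4 without cells above 15000 UMIs, 41 and 5 at a mitochondrial share of 1 to 10%, 52 and 4 with no limit on Vim and 41 and 4 with 1 or more G2/M UMIs.

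Immediate early genes (0.56) moved to 0.70 matched over members that reached 20 UMIs there, 0.71 at 10 or more Cdkn1a UMIs, 0.33 at 1 to 4 and 0.39 with 0 G2/M UMIs. Absorptive genes (-0.19) moved to -0.45 matched and to -0.45 at or below the median immediate early share. G2/M genes (-0.04) moved to -0.24 thinned, -0.32 with at least 5000 UMIs and 0.14 under 10 absorptive UMIs. ATF4 genes (-0.28) moved to -0.53 thinned and -0.52 with 0 G2/M UMIs, basement membrane genes (-0.11) to 0.0797 thinned, S phase genes (0.19) to -0.15 with 0 G2/M UMIs, and hypoxia genes (0.10) to 0.28 there and 0.28 under 10 absorptive UMIs. The cause of these moves was not tested.

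No paired analysis was possible because each condition has 1 library and no test was made between cells, and there is no replicate to leave out. Genes under 20 UMIs give no ratio at this depth.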

Other observations

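Lists outside the p53 pathway held small differences, some in 1 direction and some mixed. Over all genes measured, 9.09% had an interval above 0 and 9.53% below. Of 12 keratin and epithelial junction genes measured, 5 had an interval above 0 and 0 below, with Krt19 at 264 CPM against 194 CPM (log2 ratio 0.44, 0.32 to 0.57) and the tight junction gene Cldn4 at 46.1 against 23.5 CPM (0.94, 0.63 to 1.32). Of 11 targets of TGF-beta and BMP, 4 had an interval above 0 and 0 below, and Id2 and Id3 had 165 against 126 CPM and 185 against 132 CPM (0.39 and 0.48). The imprinted genes were mixed, with 3 intervals above 0 and 2 below among 15, too few to set apart from these shares. The noncoding gene H19 had 758 against 518 CPM (0.55, 0.47 to 0.62), while its neighbour Igf2 had an interval of -0.02 to 0.05. Genes of the anterior visceral endoderm and Wnt antagonists had 1 interval above 0 and 2 below among 8, likewise too few to set apart. The Wnt antagonist Dkk1 had 17.2 against 32.2 CPM (-0.87, -1.29 to -0.53), while the activin antagonist Fst had 328 against 282 CPM (0.22, 0.11 to 0.32). The 8 mitochondrially encoded genes measured had a median log2 ratio of -0.16, and 7 of them had an interval below 0. After matching on depth the median was -0.03.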
